A study of Oryza sativa Japonica Group and Oryza sativa with 4 samples.

Results

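The comparison described here is the leaf response to the green rice leafhopper (GRH, Nephotettix cincticeps) that was shared by 2 rice lines. Ilpum is a susceptible japonica cultivar labelled wild type, and NIL is a near-isogenic line in the Ilpum background that carries the resistance gene Grh1, introduced from the indica cultivar Shingwang. Seedlings of both lines were 21 days old, and the infested ones carried second-instar GRH nymphs for 48 h, while the controls carried no insects. Each of the 4 combinations of line and treatment has 1 library, named by the line and either control or GRH. The lines were taken as 2 replicates paired by line, so a difference between the lines in their response is part of the error here. The methods speak of samples taken in duplicate from separate seedlings, and whether a library pools them or holds 1 of them is not stated. Of 37849 annotated genes, 10189 had a mean of at least 30 reads over the 4 libraries and were compared. For each gene and line the difference was taken as log2((GRH FPKM + 1)/(control FPKM + 1)), called the log2 difference below, where FPKM is a fragment count scaled by the length of the transcript and the size of the library. The sign was the same in both lines for 6393 genes, and these were ranked by the smaller of their 2 absolute log2 differences.

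Feeding insects are answered in plants largely through jasmonate, a hormone made from plastid membrane lipids. Lipoxygenases oxygenate linolenic acid, allene oxide synthase and allene oxide cyclase convert the product into a cyclic precursor, and 12-oxophytodienoate reductase leads it towards jasmonic acid. The active conjugate triggers the removal of JAZ repressors, which otherwise hold back transcription factors of the bHLH family. Downstream products in grasses include phenolics that start from phenylalanine ammonia-lyase (PAL), volatile terpenes, free indole, protease inhibitors, chitinases and glucanases. WRKY transcription factors act in both jasmonate and salicylate signalling.

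Depth differed with treatment. The Ilpum libraries held 2119765 reads without and 894661 with GRH, and the NIL libraries 5037081 without and 1170099 with GRH, so that the control was 2.37 times as deep as the infested library in Ilpum and 4.30 times in NIL. Both infested libraries were the shallower of their pair, and depth and infestation therefore cannot be told apart in this design. A gene with 0 reads could still have been present at the level of 3 reads, which is 1.42 CPM (counts scaled to the library total) in Ilpum control and 3.35 in Ilpum GRH, and 0.596 and 2.56 for the NIL libraries. Such limits cover counting error only. Where the control level predicted at least 10 reads in the infested library, 405 of 9549 genes in Ilpum and 137 of 9943 in NIL had 0 reads there. In leaf RNA, fewer cells of a type and less RNA per cell cannot be told apart. Photosynthesis transcripts, the defining ones of leaf mesophyll, were abundant in all 4 libraries, and their values are given with those of seed, pollen and root genes.

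Counted by sign alone, more genes were lower than higher with GRH in both lines. Of the 10189 genes, 2729 (26.8%) were higher and 3664 (36.0%) lower in both, and 3796 had opposite signs or no difference in a line. The median log2 difference over all tested genes was -0.15 in Ilpum and -0.05 in NIL. Across genes, which are not independent replicates, the log2 differences of the lines had a Pearson r of 0.43 and a Spearman rho of 0.36. At a size of at least 2-fold, 524 genes (5.14%) were higher in both lines and 545 (5.35%) lower. Which of these 2-fold counts was larger turned with the scaling and the filter, with 593 higher and 411 lower after quantile normalization, 542 and 512 with TMM-scaled CPM, 585 and 557 after thinning to equal depth, and 778 and 531 at a minimum mean CPM of 10. By sign alone the lower genes were the more numerous in each of these too, the closest being 2995 higher and 3368 lower after quantile normalization. The shared higher genes were 38.2% of the 1372 genes that passed 2-fold in Ilpum and 50.3% of the 1041 in NIL. The shared lower genes were 24.3% of the 2240 in Ilpum and 39.4% of the 1382 in NIL. At 4-fold, 162 genes (1.59%) were higher in both lines and 93 (0.913%) lower, and the higher ones made up 39.4% of those in Ilpum and 62.8% of those in NIL, against 11.02% and 26.3% for the lower ones. At 8-fold the counts were 83 higher and 30 lower.

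edgeR's quasi-likelihood test on the read counts, paired by line and with Benjamini-Hochberg adjustment over all 10189 genes, called 99 genes higher with GRH (0.972%) and 7 lower (0.0687%) at an adjusted p under 0.05. "Rose" and "fell" below are used only of these genes. At an unadjusted p under 0.05, 752 genes (7.38%) were higher and 545 (5.35%) lower. These shares, with the 26.8% higher and 36.0% lower in both lines, are the background for every list count below. The smallest adjusted p was 0.0111, and 1 residual degree of freedom is left in this fit. Of the 99 genes that rose, 98 were at least 4-fold higher in both lines, and all 7 that fell were at least 4-fold lower in both. The test used the same libraries as the ranking, so these overlaps are a description. Of the 99, 78 had at least 3 reads in every library and 11 had 0 reads in both controls. These 11 passed the read minimum through the infested libraries alone, so their direction was fixed by the filter. The fitted log2 values of the 99 had a median of 4.40. An SE below is the absolute fitted log2 divided by the square root of the test's F value. It restates the test and is no separate measure of spread. Without the line pairing edgeR called 0 genes in either direction, with 548 higher and 241 lower at an unadjusted p under 0.05. A fit without 1 library can be had only without the pairing: it called 0 genes without Ilpum control (351 higher and 84 lower at an unadjusted p under 0.05), 0 without NIL control (276 and 98), 0 without Ilpum GRH (428 and 625), and 45 higher and 1 lower without NIL GRH.

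**Figure D1:**
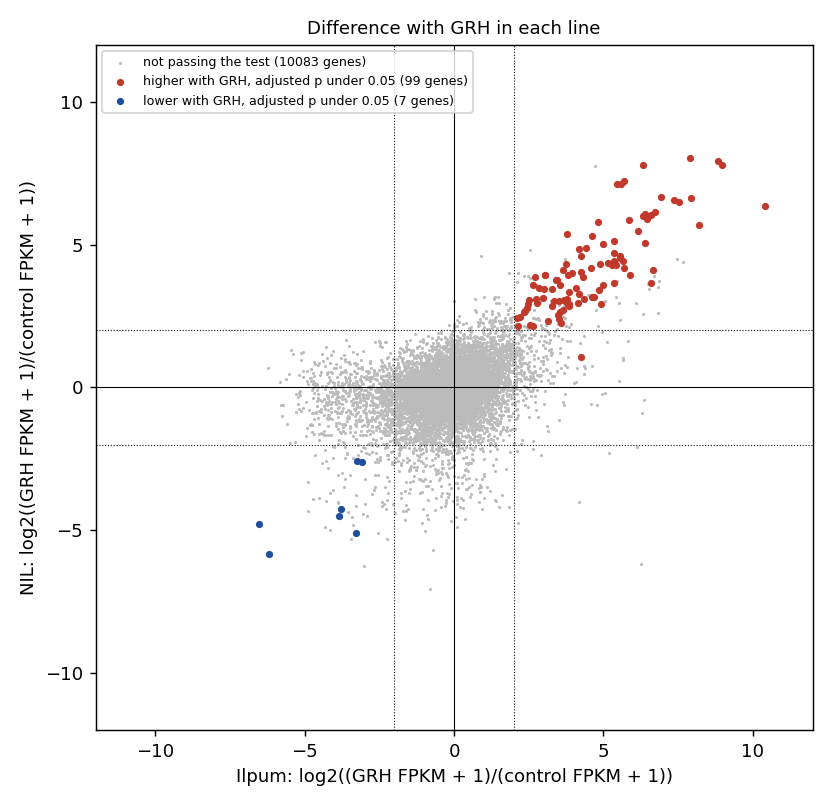
The log2 difference with GRH in NIL (vertical axis) is plotted against that in Ilpum (horizontal axis) for the 10189 genes tested, 1 point a gene. Red points are the 99 genes that rose and blue points the 7 that fell in the paired edgeR test, and dotted lines mark a 4-fold difference. All but 1 of the red points lie beyond the 4-fold lines in both lines.

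The 162 genes at least 4-fold higher in both lines went from a median of 5.58 FPKM in Ilpum control to 116 in Ilpum GRH, and from 4.47 in NIL control to 68.8 in NIL GRH. Their median read counts were 18 and 153 in Ilpum and 34 and 109 in NIL. Together they held 0.312% of all reads before and 5.90% after infestation in Ilpum, and 0.185% and 3.42% in NIL. The log2 difference was larger in Ilpum for 106 of the 162. Of the 162, 128 have a single annotated transcript and 21 are described only as hypothetical or uncharacterised. The 2 genes just inside the 4-fold limit were Os10g0558750, an oxygenase, with log2 differences of 3.09 for Ilpum and 2.01 for NIL, and Os05g0519000, a VQ domain gene, with 2.12 for Ilpum and 2.01 for NIL. Just outside it were a chitinase precursor gene, Os01g0860500, with 2.06 for Ilpum and 1.98 for NIL, and a beta-glucosidase gene, Os08g0509200, with 2.24 for Ilpum and 1.96 for NIL.

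A lipoxygenase gene had more reads than any other gene in both infested libraries. Os12g0559200 (chr12:22854591-22860198, minus strand, IRGSP-1.0) had 300 control and 10530 GRH reads in Ilpum, against 237 and 14452 in NIL. Per length, that was 44.1 FPKM in the control and 3577 with GRH in Ilpum, against 16.4 and 3848 in NIL. Its rank by reads moved from 1278 in Ilpum control to 1 in Ilpum GRH and from 4276 in NIL control to 1 in NIL GRH, and its share of all reads moved from 0.0142% to 1.18% and from 0.00471% to 1.24%. Both infested libraries were far above both controls. The log2 difference was 6.31 for Ilpum and 7.79 for NIL, and the gene rose in the paired test (edgeR log2 7.20, SE 0.59, adjusted p = 0.0111).

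Of 20 genes described as lipoxygenases, 12 were tested, 3 rose and 0 fell. In both lines 10 were higher and 2 lower, beside 26.8% and 36.0% of all tested genes. The median log2 difference was 1.63 for Ilpum and 1.24 for NIL, beside -0.15 and -0.05 over all tested genes. Os12g0559934 (chr12:22934817-22935735), on the same chromosome as the leading gene, had 15 control and 328 GRH reads in Ilpum, against 7 and 295 in NIL, and rose as well (edgeR log2 6.48, SE 0.56, adjusted p = 0.0112). Os03g0738600, whose description names seed germination and longevity, had 0 reads in both controls, 113 reads in Ilpum GRH and 122 in NIL GRH. It rose (adjusted p = 0.0141 by edgeR). The list does not separate lipoxygenases of the jasmonate route from others. Related lipoxygenase genes are close in sequence, so reads may have been split between them. Os02g0194700, which the deposited description calls a chloroplast precursor of lipoxygenase 2.3, had lower values with GRH in both lines, with 758 FPKM in the control and 175 with GRH in Ilpum, against 422 and 177 in NIL. It was the most abundant lipoxygenase in both controls, and both infested libraries lay below both controls, but it did not pass (edgeR log2 -1.69, SE 0.37, adjusted p = 0.131).

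Of the 13 jasmonate synthesis genes after lipoxygenase, 8 were tested, 1 rose and 0 fell, 6 were higher in both lines, and the median log2 difference was 1.76 for Ilpum and 1.73 for NIL. The gene that rose was the allene oxide synthase Os03g0767000 (chr3:31764991-31766985), the first enzyme committed to jasmonate, with 18.8 FPKM in the control and 202 with GRH in Ilpum, against 7.13 and 64.9 in NIL. Its log2 differences were close in size, 3.35 for Ilpum and 3.02 for NIL (edgeR log2 3.32, SE 0.35, adjusted p = 0.0203). The gene lies within Os03g0766900, annotated on the opposite strand and also as allene oxide synthase, whose log2 differences were -0.16 for Ilpum and -0.64 for NIL, and the counting used strand. From reads, the edgeR log2 of Os03g0766900 was 0.25 (adjusted p = 0.876), so its sign depended on the measure. Another allene oxide synthase, Os02g0218700, had 0 control and 20 GRH reads in Ilpum, against 148 and 259 in NIL, higher with GRH in both lines but at different levels in the 2 lines (adjusted p = 0.123 by edgeR). The allene oxide cyclase Os03g0438100 had 150.2 FPKM in the control and 486 with GRH in Ilpum, against 49.4 and 254 in NIL, with no overlap between the treatments (adjusted p = 0.0722). The share of all tested genes without overlap was not tested. With 2 libraries per treatment, a lack of overlap is therefore a description only, here and for other genes. The 12-oxophytodienoate reductase Os06g0215900 had log2 differences of 4.82 for Ilpum and 2.16 for NIL (adjusted p = 0.115). Lipoxygenase, allene oxide synthase, allene oxide cyclase and oxophytodienoate reductase thus each had a member that was higher in both lines, and lipoxygenase and allene oxide synthase had members that passed the test. The lipoxygenase most abundant in the controls, Os02g0194700, was lower in both lines.

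JAZ repressor genes, which jasmonate itself induces, were higher as well. Of 14, 10 were tested, 2 rose and 0 fell. In both lines 9 were higher and 0 lower, beside 26.8% and 36.0% of all tested genes. The median log2 difference was 1.69 for Ilpum and 1.0 for NIL. Os03g0180800 had 7.85 FPKM in the control and 127 with GRH in Ilpum, against 2.21 and 31.6 in NIL (edgeR log2 3.93, SE 0.49, adjusted p = 0.0288). Os09g0439200 had 15.2 FPKM in the control and 107 with GRH in Ilpum, against 15.2 and 137 in NIL (edgeR log2 3.01, SE 0.37, adjusted p = 0.0273), and its 2 controls were at the same level. The member not shared was Os08g0428400, at -0.26 for Ilpum and 1.43 for NIL.

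**Figure D2:**
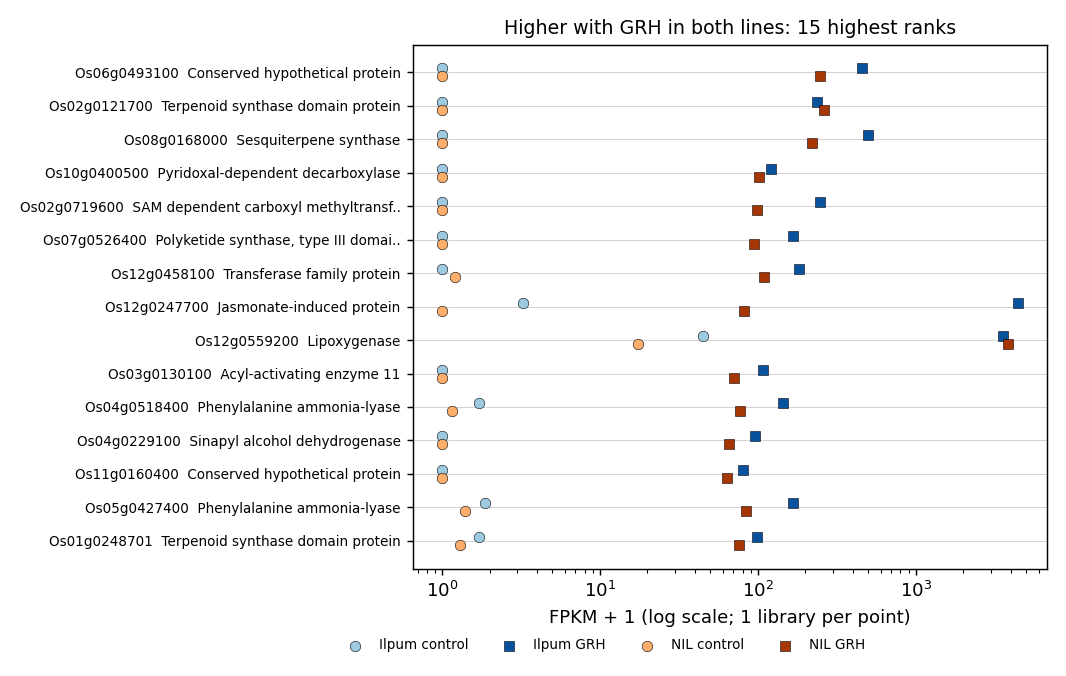
FPKM plus 1 on a log axis in each of the 4 libraries, 1 point a library, for the 15 genes with the highest ranks among those higher with GRH in both lines. Infested libraries (squares) stand right of both controls (circles) in every row, and the controls of 9 genes sit at 1, which is 0 FPKM, in both lines.

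Of the terpene synthase genes that rose, 4 had at most 3 reads in either control. These enzymes turn prenyl diphosphates into volatile terpenes or phytoalexin precursors. Of 34, only 7 had enough reads to be tested, 5 rose, 0 fell, and 6 were higher in both lines, with a median log2 difference of 5.46 for Ilpum and 5.87 for NIL. A gene tested here often passed the read minimum through its infested libraries alone, so neither the counts nor the median describe all 34. The summed FPKM of the 7 was 66 without and 1291 with GRH in Ilpum, against 17 and 804 in NIL. The sesquiterpene synthase Os08g0168000 (chr8:3972195-3977096) had 0 reads in both controls and 834 reads in Ilpum GRH and 467 in NIL GRH, at least 659-fold (Ilpum) and 670.1-fold (NIL) higher against a limit of 3 reads per library (adjusted p = 0.0111 by edgeR). Os02g0121700 (chr2:1145837-1151052), described as holding a terpenoid synthase domain, had 0 in both controls and 462 reads in Ilpum GRH and 647 in NIL GRH, at least 365-fold (Ilpum) and 928-fold (NIL) higher (adjusted p = 0.0111). In both genes the level after infestation was of the same order in the 2 lines, with 237 FPKM in Ilpum GRH and 260.2 in NIL GRH for Os02g0121700.

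A second sesquiterpene synthase, Os08g0167800, lies beside Os08g0168000, 6769 bases away, and rose with 3 control and 102 GRH reads in Ilpum, against 0 and 258 in NIL (adjusted p = 0.0273). Os01g0248701 had 2 control and 118 GRH reads in Ilpum, against 2 and 116 in NIL, an almost equal difference in the lines, at 5.85 for Ilpum and 5.87 for NIL (edgeR log2 7.43, SE 0.58, adjusted p = 0.0111). Os08g0139700, described as terpene synthase 6, was already expressed in the controls and rose from 50.2 to 331 FPKM in Ilpum and 3.57 to 65.7 in NIL (edgeR log2 3.42, SE 0.46, adjusted p = 0.0353). The remaining members did not pass, Os03g0348200 with 20 control and 66 GRH reads in Ilpum, against 21 and 79 in NIL (adjusted p = 0.0627) and Os03g0347900 with log2 differences of 0.78 for Ilpum and -0.29 for NIL. Outside the list, Os07g0190000, a 1-deoxy-D-xylulose 5-phosphate synthase of the plastid isoprenoid pathway, rose from 4.67 to 158 FPKM in Ilpum and 1.51 to 139.8 in NIL (edgeR log2 5.78, SE 0.50, adjusted p = 0.0112). The phytoene synthase 3 gene Os09g0555500, the entry to carotenoids, rose from 10.7 to 79.9 FPKM in Ilpum and 8.58 to 73.4 in NIL (edgeR log2 3.00, SE 0.39, adjusted p = 0.0326). Both were named after their values had been seen.

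Low-expressed PAL genes rose, while the abundant ones did not pass. PAL turns phenylalanine into cinnamate, the start of phenolic defence compounds and lignin. Of 44 phenylpropanoid genes, 22 were tested, 5 rose and 0 fell. In both lines 17 were higher and 2 lower, beside 26.8% and 36.0% of all tested genes. The median log2 difference was 1.15 for Ilpum and 1.06 for NIL. Os04g0518400 (chr4:25927077-25929716) had 5 control and 351 GRH reads in Ilpum, against 3 and 236 in NIL (edgeR log2 7.77, SE 0.49, adjusted p = 0.0111). Os05g0427400 (chr5:20953643-20955793) had 5 control and 340 GRH reads in Ilpum, against 5 and 219 in NIL (edgeR log2 7.39, SE 0.45, adjusted p = 0.0111). Both went from at most 5 reads in either control to more than 200 in either infested library. The pair Os02g0627100 and Os02g0626600, 11166 bases apart on chromosome 2, rose too: the former had 9 control and 410 GRH reads in Ilpum, against 14 and 276 in NIL (edgeR log2 6.54, SE 0.42, adjusted p = 0.0111), and the latter had 0 reads in both controls and 171 reads in Ilpum GRH and 84 in NIL GRH (adjusted p = 0.014). Os02g0626400 and Os02g0626100 were the abundant copies, and their FPKM went from 204 to 748 FPKM in Ilpum and 241 to 584 in NIL for Os02g0626400 and from 181 to 523 FPKM in Ilpum and 137 to 304 in NIL for Os02g0626100. Their adjusted p values by edgeR were 0.143 and 0.177. PAL copies are near-identical over long stretches, so the division of reads among them is uncertain.

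Later steps of phenolic synthesis had single members that rose, of which only the ligase stands in the list. The 4-coumarate:CoA ligase Os08g0448000, which activates cinnamates, rose from 8.24 to 88.7 FPKM in Ilpum and 1.16 to 22.3 in NIL (edgeR log2 3.79, SE 0.45, adjusted p = 0.0272). The coniferaldehyde 5-hydroxylase Os10g0512400, an enzyme of syringyl lignin, rose from 3.03 to 72.7 FPKM in Ilpum and 2.36 to 31.6 in NIL (edgeR log2 4.15, SE 0.48, adjusted p = 0.0251). Os04g0229100, described as a sinapyl alcohol dehydrogenase, had 0 reads in both controls and 125 reads in Ilpum GRH and 110 in NIL GRH, at least 98.7-fold (Ilpum) and 158-fold (NIL) higher (adjusted p = 0.0141 by edgeR). Os08g0157500, a caffeic acid O-methyltransferase, had log2 differences of 3.53 for Ilpum and 2.40 for NIL (adjusted p = 0.0471). Against these, the abundant ligase Os06g0656500 was lower in both lines at -0.48 for Ilpum and -0.69 for NIL and did not pass.

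Both genes described as indole-3-glycerol phosphate lyase rose. This enzyme releases free indole, a volatile that maize and rice leaves give off when insects feed. Os03g0797400 (chr3:33214544-33217418) had 21.4 FPKM in the control and 424 with GRH in Ilpum, against 8.86 and 240.1 in NIL (edgeR log2 4.54, SE 0.37, adjusted p = 0.0111). Its neighbour Os03g0797500 (chr3:33226461-33228543), 9043 bases away, had 4.54 FPKM in the control and 281 with GRH in Ilpum, against 0 and 149 in NIL (adjusted p = 0.0339). In the tryptophan and serotonin list they were the only 2 of 11 tested genes that rose, 0 fell, and the median of the list was 0.85 for Ilpum and 0.54 for NIL.

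Several other enzymes of specialised metabolism had 0 reads in both controls and were well covered after infestation. Genes with 0 control reads passed the read minimum through the infested libraries alone, so only a higher value could be seen in them. Os02g0719600, of the carboxyl methyltransferase family that makes methyl esters of plant hormones and volatiles, had 363 reads in Ilpum GRH and 184 in NIL GRH, at least 287-fold (Ilpum) and 264-fold (NIL) higher. Os07g0526400, a type III polyketide synthase, the family of chalcone synthase, had 258 reads in Ilpum GRH and 186 in NIL GRH, at least 204-fold (Ilpum) and 267-fold (NIL) higher. Os10g0400500, a pyridoxal-dependent decarboxylase, had 173 reads in Ilpum GRH and 186 in NIL GRH, at least 137-fold (Ilpum) and 267-fold (NIL) higher. All 3 rose with adjusted p between 0.0111 and 0.0112 by edgeR. The acyl-activating enzyme Os03g0130100 had 198 reads in Ilpum GRH and 166 in NIL GRH (adjusted p = 0.0112), and the transferase Os12g0458100 had 0 control and 318 GRH reads in Ilpum, against 3 and 242 in NIL (edgeR log2 9.09, SE 0.70, adjusted p = 0.0111). The gene at the top of the ranking, Os06g0493100 (chr6:17066928-17068612), is described only as a conserved hypothetical protein. It had 0 reads in both controls and 233 reads in Ilpum GRH and 159 in NIL GRH, at least 184-fold (Ilpum) and 228-fold (NIL) higher (adjusted p = 0.0111). A second such gene, Os11g0160400, had 90 reads in Ilpum GRH and 91 in NIL GRH (adjusted p = 0.0203). At these depths, 0 reads in NIL control leaves room for a level of up to 0.596 CPM.

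A jasmonate-induced protein gene had the largest log2 difference of all tested genes in Ilpum. Os12g0247700 (chr12:8239432-8241147) had 7 control and 5088 GRH reads in Ilpum, against 0 and 119 in NIL, or 2.26 FPKM in the control and 4421 with GRH in Ilpum, against 0 and 80.7 in NIL. Both infested libraries were above both controls, and Ilpum GRH was far above NIL GRH. The log2 difference was 10.41 for Ilpum and 6.35 for NIL (edgeR log2 10.77, SE 0.60, adjusted p = 0.0111). The phospholipase D gene Os06g0604200, which the deposited description ties to the chloroplast and to herbivores, had 9 control and 193 GRH reads in Ilpum, against 8 and 168 in NIL. Its differences were alike in size, 4.98 for Ilpum and 5.01 for NIL (edgeR log2 6.04, SE 0.46, adjusted p = 0.0111). The fatty acid alpha-dioxygenase gene Os12g0448900, of another oxylipin branch, rose from 2.95 to 113 FPKM in Ilpum and 5.82 to 72.3 in NIL (edgeR log2 4.34, SE 0.53, adjusted p = 0.0273).

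Pathogenesis-related (PR) and antimicrobial genes were higher in many members, with few past the adjusted threshold. Of 165, 49 were tested, 4 rose and 0 fell. By edgeR 25 were higher at an unadjusted p under 0.05, beside 7.38% of all tested genes. In both lines 29 were higher and 6 lower, beside 26.8% and 36.0% of all, and the median was 0.73 for Ilpum and 0.78 for NIL. The beta-1,3-glucanase Os01g0940700, an enzyme that cuts callose and fungal walls, had 7.69 FPKM in the control and 123 with GRH in Ilpum, against 10.2 and 83.6 in NIL (edgeR log2 3.46, SE 0.46, adjusted p = 0.0348). The glucanase next to it, Os01g0940800, 1358 bases away, rose as well, at 3.79 for Ilpum and 3.09 for NIL (adjusted p = 0.0203), but its description did not match the words of the list and it is not among the 4. Chitinases rose in Os11g0702100, from 5.99 to 79.7 FPKM in Ilpum and 21.1 to 137 in NIL (adjusted p = 0.0458), and in Os10g0542900, from 16 to 151 FPKM in Ilpum and 29.2 to 150.4 in NIL (adjusted p = 0.0485). The thaumatin-like gene Os12g0628600 passed (adjusted p = 0.0464), but its NIL libraries held 2 reads each, so its call rests on Ilpum, with 116 and 971 reads. Outside the list, JIOsPR10 (Os03g0300400) rose from 5.15 to 196 FPKM in Ilpum and 5.6 to 77.7 in NIL (edgeR log2 4.40, SE 0.53, adjusted p = 0.0273). The neighbours RIR1a (Os10g0569400) and RIR1b (Os10g0569800) rose from 8.59 to 496 FPKM in Ilpum and 14.7 to 281 in NIL, and from 6.42 to 219 FPKM in Ilpum and 9.25 to 203 in NIL (adjusted p = 0.0203 and adjusted p = 0.0154 by edgeR).

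Of 86 WRKY transcription factor genes, 30 were tested, 3 rose and 0 fell. In both lines 22 were higher and 3 lower, beside 26.8% and 36.0% of all tested genes. Their median log2 difference was 0.99 for Ilpum and 0.64 for NIL. Os09g0417600 had 9.06 FPKM in the control and 359 with GRH in Ilpum, against 3.77 and 96.1 in NIL (edgeR log2 4.83, SE 0.42, adjusted p = 0.0117). Os05g0322900, which the description links to benzothiadiazole, a chemical inducer of resistance, had 7.4 FPKM in the control and 327 with GRH in Ilpum, against 5.41 and 124 in NIL (edgeR log2 5.11, SE 0.51, adjusted p = 0.0163). Os11g0117400 had 12.1 FPKM in the control and 180.5 with GRH in Ilpum, against 1.88 and 119.6 in NIL (edgeR log2 4.78, SE 0.58, adjusted p = 0.0273), and unlike the former pair its difference was larger in NIL. In the opposite direction, WRKY30 (Os08g0499300) had 72 control and 0 GRH reads in Ilpum, against 192 and 14 in NIL and did not pass (adjusted p = 0.381).

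The bHLH family held genes that moved in both directions. Of 38 tested, 2 rose and 1 fell, and the median was 0.20 for Ilpum and 0.36 for NIL. Os04g0301500 had 5.64 FPKM in the control and 395 with GRH in Ilpum, against 5.63 and 101 in NIL (edgeR log2 5.09, SE 0.61, adjusted p = 0.0273), and Os01g0705700, described as ICE1-like, had 0 control and 183 GRH reads in Ilpum, against 4 and 38 in NIL (adjusted p = 0.0485). The bHLH gene that fell, Os01g0924400, led the ranking of lower genes and is described with them. In the AP2/ERF, NAC and MYB families, 0 of 36, 0 of 26 and 0 of 49 tested genes passed by edgeR in either direction. At an unadjusted p under 0.05, 6, 7 and 6 were higher and 2, 1 and 2 lower, beside 7.38% and 5.35% of all. In both lines 18, 14 and 12 were higher and 7, 6 and 17 lower, beside 26.8% and 36.0% of all tested genes. Over all tested genes 0.972% rose and 0.0687% fell, so 0 passing cannot set these families apart from the rest. Their medians were 0.053 for Ilpum and 0.48 for NIL for AP2/ERF, 0.23 for Ilpum and 0.56 for NIL for NAC and -0.25 for Ilpum and 0.070 for NIL for MYB. The highest-ranked AP2/ERF gene, Os09g0457900, had 4 control and 117 GRH reads in Ilpum, against 12 and 36 in NIL (adjusted p = 0.0665).

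Signalling genes that rose acted at several levels. The blast- and wound-inducible mitogen-activated protein kinase Os05g0566400 rose from 21.4 to 253 FPKM in Ilpum and 14.6 to 126 in NIL (edgeR log2 3.35, SE 0.37, adjusted p = 0.0203). The calcium-dependent protein kinase Os02g0126400 rose from 42.7 to 193 FPKM in Ilpum and 15.5 to 73.1 in NIL, by nearly the same log2 difference in each line, 2.15 for Ilpum and 2.17 for NIL (edgeR log2 2.22, SE 0.32, adjusted p = 0.0479). A calmodulin-binding protein gene, Os12g0556200, rose from 28.6 to 348 FPKM in Ilpum and 21.8 to 107 in NIL (edgeR log2 3.09, SE 0.34, adjusted p = 0.0203). These last 2 were the only ones of 96 tested calcium-sensor genes to rise, 0 fell, and the median of the list was 0.049 for Ilpum and 0.13 for NIL. Receptor-like kinases rose in Os06g0288100, at 2.97 for Ilpum and 3.14 for NIL (adjusted p = 0.0225), and in Os07g0550900, at 3.86 for Ilpum and 2.87 for NIL (adjusted p = 0.0272). The NPR1-like gene Os03g0667100, of the family that relays salicylate, had 3.27 for Ilpum and 2.87 for NIL (adjusted p = 0.0458). The NB-ARC genes, which encode most intracellular immune receptors of plants, had a median near 0 in both lines. Of 344, 63 were tested and 0 passed by edgeR in either direction (5 higher and 2 lower at an unadjusted p under 0.05). In both lines 20 were higher and 21 lower, beside 26.8% and 36.0% of all tested genes. The median was -0.0063 for Ilpum and 0 for NIL. Quantile normalization moved the median of their mean log2 difference over the lines from 0.047 to 0.57.

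Oxidative and detoxification families were mixed. Of 19 tested class III peroxidases, secreted enzymes that cross-link walls, 1 rose and 0 fell. In both lines 11 were higher and 3 lower, beside 26.8% and 36.0% of all tested genes. The median was 1.38 for Ilpum and 1.36 for NIL, and 5 members had fewer than 3 reads in at least 1 library. The median of the mean over the lines was 1.08, and it depended on the processing. It was 0.53 over genes with a single transcript, 0.79 at a minimum mean of 100 reads and 1.55 after quantile normalization. The peroxidase Os04g0688300 rose from 83.7 to 441 FPKM in Ilpum and 44.3 to 288 in NIL (edgeR log2 2.56, SE 0.33, adjusted p = 0.0333), and its neighbour Os04g0688100 had 0 control and 247 GRH reads in Ilpum, against 24 and 168 in NIL (adjusted p = 0.0665). Of 68 tested cytochrome P450 genes, 2 rose and 0 fell. In both lines 18 were higher and 23 lower, near the shares over all tested genes, which were 26.8% and 36.0%. Os09g0441400, described as elicitor-inducible, rose from 7.95 to 179.8 FPKM in Ilpum and 7.84 to 74 in NIL (edgeR log2 3.85, SE 0.47, adjusted p = 0.0273), and Os11g0289700 rose from 13.7 to 162 FPKM in Ilpum and 14.1 to 85.5 in NIL (edgeR log2 3.07, SE 0.41, adjusted p = 0.0361). On the lower side, Os09g0528700, of the CYP78A group, had 278 control and 11 GRH reads in Ilpum, against 234 and 0 in NIL (adjusted p = 0.109). Of 24 tested glutathione S-transferases, 0 passed by edgeR, with 3 higher and 1 lower at an unadjusted p under 0.05.

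Transport and wall genes were represented by single members. Os06g0228200, an aquaporin of the NIP III group that the description names as a silicon channel, had 5.1 FPKM in the control and 283 with GRH in Ilpum, against 4.5 and 133 in NIL (edgeR log2 5.06, SE 0.44, adjusted p = 0.0112), and it was the only one of 10 tested aquaporin genes to rise. The sucrose synthase gene Os03g0401300, which splits sucrose for sink tissues and wall synthesis, rose from 5.53 to 90.8 FPKM in Ilpum and 7.65 to 62.4 in NIL (edgeR log2 3.21, SE 0.47, adjusted p = 0.0473). The hexose transporter gene Os07g0106200 rose from 33 to 170.0 FPKM in Ilpum and 22 to 144 in NIL (edgeR log2 2.56, SE 0.33, adjusted p = 0.0328). Of 17 tested lipid transfer protein genes, 0 passed by edgeR (9 higher and 0 lower at an unadjusted p under 0.05). In both lines 13 were higher and 0 lower, beside 26.8% and 36.0% of all tested genes. The median was 1.07 for Ilpum and 1.10 for NIL. Of 14 tested expansin and xyloglucan genes, 0 passed (7 higher and 0 lower at an unadjusted p under 0.05), with a median of 0.76 for Ilpum and 0.86 for NIL, and over those with a single transcript the median of the mean over the lines was -0.033. Among abundant genes of no known function, Os07g0661400 rose, with 164 FPKM in the control and 3108 with GRH in Ilpum, against 56.2 and 929 in NIL (edgeR log2 4.16, SE 0.37, adjusted p = 0.0118). The genes Os09g0482200 and Os09g0482500, aspartic peptidases 9136 bases apart, both rose, and their counts differed by at most 2 reads in each library, so they may be 1 measurement made on near-identical copies.

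**Figure D3:**
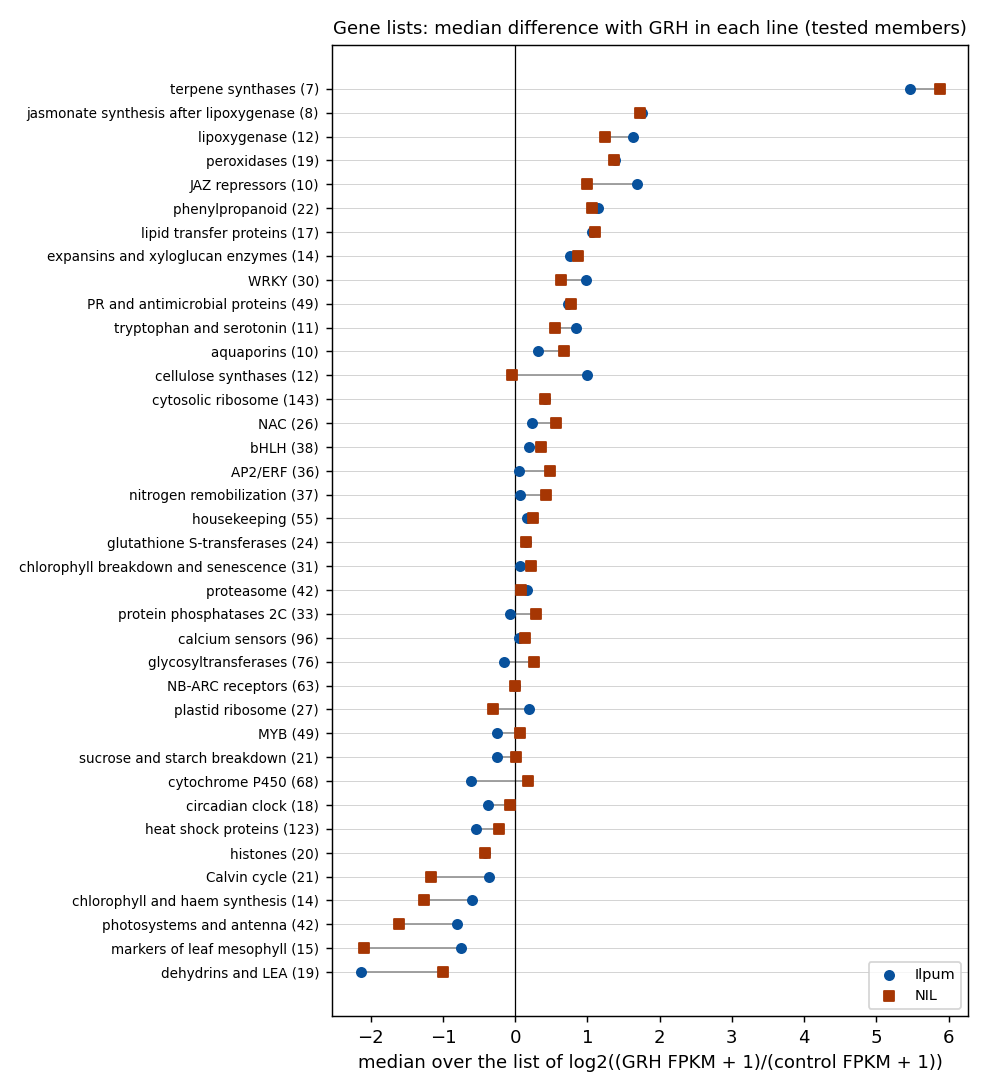
Median log2 difference with GRH over the tested members of each gene list, in Ilpum (circles) and NIL (squares), with the number tested in brackets. Lists of jasmonate, terpene and phenylpropanoid genes stand right of 0 in both lines, photosynthesis, Calvin cycle and dehydrin lists left of it, and the medians over all tested genes were -0.15 and -0.05. Terpene synthase members often passed the read minimum through their infested libraries alone.

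Among the genes that were lower, 7 fell in the paired test. The 93 genes at least 4-fold lower in both lines had median levels of 16.5 FPKM without and 0 with GRH in Ilpum, against 23.3 and 1.66 in NIL. Of these, 25 had 0 reads in both infested libraries, where their controls and the depth predicted between 3.80 and 124 reads in Ilpum and between 17.2 and 126 in NIL. Genes with 0 reads in both infested libraries passed the read minimum through the controls alone, so only a lower value could be seen in them. The 545 genes at least 2-fold lower in both lines together held 10.9% of the reads without and 3.69% with GRH in Ilpum, against 13.1% and 4.04% in NIL. At the 4-fold limit, Os04g0657500, a lipase gene, lay just inside with -2.29 for Ilpum and -2.02 for NIL, and Os11g0432400, a translocator gene, just outside with -1.99 for Ilpum and -2.62 for NIL. With all 4 libraries thinned to the depth of the shallowest and CPM in place of FPKM, 97 genes were at least 4-fold lower in both lines and 176 at least 4-fold higher.

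The gene that led the lower ranking was Os01g0924400 (chr1:40477240-40479093), described as an auxin-induced bHLH transcription factor. It had 294 control and 0 GRH reads in Ilpum, against 542 and 0 in NIL, and the controls predicted 124 reads in Ilpum GRH and 126 in NIL GRH. It fell (adjusted p = 0.0203 by edgeR), and was at least 41.4-fold (Ilpum) and 42-fold (NIL) lower. It passed the read minimum through its controls alone, so its direction was fixed by the filter. The hypothetical gene Os03g0782200 (chr3:32423241-32424487) had 253 control and 0 GRH reads in Ilpum, against 173 and 0 in NIL and fell (adjusted p = 0.0351), being at least 35.6-fold (Ilpum) and 13.4-fold (NIL) lower. Its direction was fixed by the filter in the same way. Os03g0782200 lies upstream of Os03g0782500, a phytochrome-interacting bHLH gene on the same strand, which went from 73.5 to 20.3 FPKM in Ilpum and 51.4 to 11.4 in NIL and did not pass (adjusted p = 0.0923).

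The other 5 genes that fell have descriptions of different kinds. Os05g0217700, a BURP domain gene of a plant-specific family, had 209.6 FPKM in the control and 13.5 with GRH in Ilpum, against 124 and 4.49 in NIL (edgeR log2 -4.28, SE 0.45, adjusted p = 0.0196). The phosphoenolpyruvate carboxykinase gene Os10g0204400, an enzyme that makes phosphoenolpyruvate from oxaloacetate in gluconeogenesis, had 52.2 FPKM in the control and 2.81 with GRH in Ilpum, against 33.3 and 0.782 in NIL (edgeR log2 -4.36, SE 0.53, adjusted p = 0.0273). The infested libraries of both genes lay far below both controls. Os01g0202500, a B-box zinc finger gene of the family that acts in light signalling, had 142 FPKM in the control and 15.8 with GRH in Ilpum, against 60.6 and 8.97 in NIL (edgeR log2 -2.93, SE 0.38, adjusted p = 0.0335). The HSP70 chaperone gene Os03g0277300 had 40.8 FPKM in the control and 3.37 with GRH in Ilpum, against 204 and 33.5 in NIL (edgeR log2 -2.92, SE 0.38, adjusted p = 0.0335), and its NIL control was above its Ilpum control. Os02g0702300, of unknown function, had 88.7 FPKM in the control and 8.11 with GRH in Ilpum, against 169 and 3.97 in NIL (edgeR log2 -4.37, SE 0.60, adjusted p = 0.0391). The last 3 were named after their values had been seen, because they fell.

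**Figure D4:**
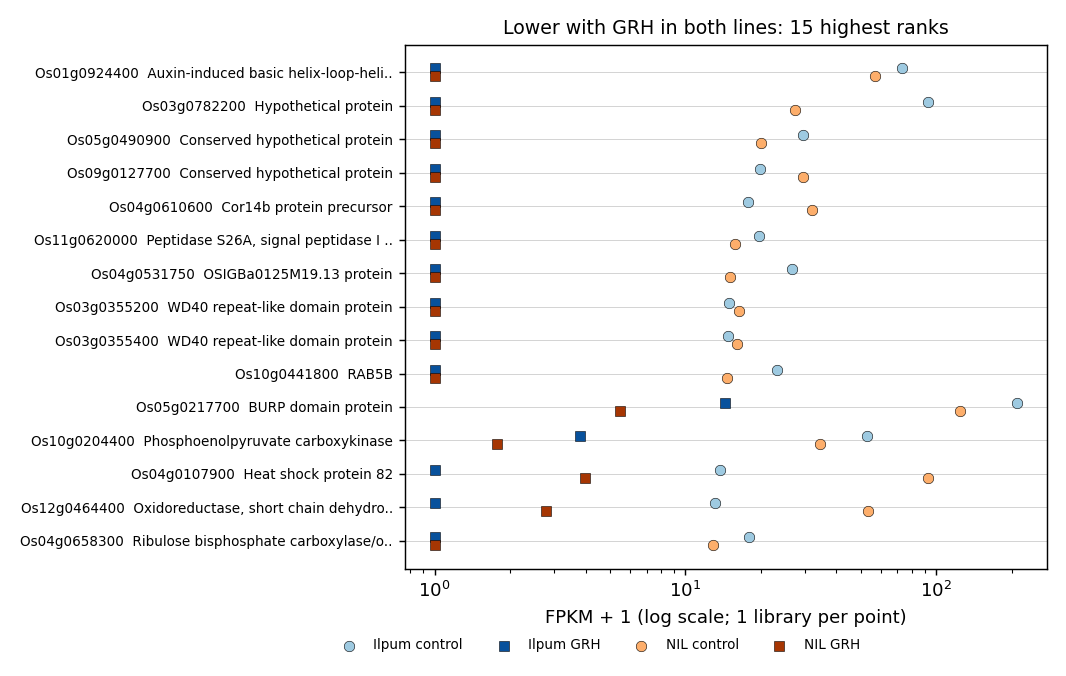
FPKM plus 1 on a log axis in each of the 4 libraries, 1 point a library, for the 15 genes with the highest ranks among those lower with GRH in both lines. Controls (circles) stand right of the infested libraries (squares) in every row, and 4 of these 15 genes fell in the paired test.

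The other 11 of the 15 highest ranks among lower genes did not pass, with adjusted p from 0.0849 to 0.3 by edgeR, and 9 of these had 0 reads in both infested libraries. The direction of these 9 was fixed by the filter. The Cor14b precursor gene Os04g0610600, of a cold-regulated plastid protein, had 40 control and 0 GRH reads in Ilpum, against 174 and 0 in NIL. The RAB5B gene Os10g0441800 had 54 control and 0 GRH reads in Ilpum, against 79 and 0 in NIL. Neither had any read after infestation. The WD40 repeat genes Os03g0355200 and Os03g0355400 lie 5880 bases apart and had 52 and 52 reads in Ilpum control, 136 and 134 in NIL control and 0 in the infested libraries, values so alike that reads of near-identical copies may have been divided between them. The HSP82 gene Os04g0107900 had 20 control and 0 GRH reads in Ilpum, against 390 and 2 in NIL (adjusted p = 0.0849). Of 123 tested heat shock and chaperone genes, 1 fell and 0 rose. In both lines 63 were lower and 21 higher, beside 36.0% and 26.8% of all tested genes. The median was -0.54 for Ilpum and -0.23 for NIL. Of 19 tested dehydrin and late embryogenesis abundant (LEA) genes, which protect cells under water deficit, 0 passed (1 higher and 9 lower at an unadjusted p under 0.05), 15 were lower in both lines, and the median was -2.14 for Ilpum and -1.0 for NIL. The dehydrin RAB16C, Os11g0454000, had 75.6 FPKM in the control and 7.9 with GRH in Ilpum, against 174 and 36.6 in NIL (adjusted p = 0.0754), while the LEA3 gene Os01g0314800 was higher, with 505 FPKM in the control and 1484 with GRH in Ilpum, against 520.2 and 1176 in NIL.

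Most tested genes for photosystem subunits and antenna proteins were lower in both lines. None passed the test, but only 0.0687% of all tested genes fell, so 0 calls cannot set this list apart from the rest. Of 67 genes for photosystem subunits and antenna proteins, 42 were tested and 0 passed by edgeR. At an unadjusted p under 0.05 by edgeR, 0 were higher and 24 lower, beside 7.38% and 5.35% of all tested genes. In both lines 35 of the 42 were lower and 0 higher, beside 36.0% and 26.8% of all tested genes, and 7 had opposite signs or no difference in a line, while 11 were at least 2-fold lower in both, beside 5.35%. Their median log2 difference was -0.80 for Ilpum and -1.61 for NIL, and their summed FPKM was 52568 without and 27960 with GRH in Ilpum, against 40355 and 17796 in NIL. The most abundant of them in Ilpum control, the antenna gene Os09g0346500, had 9317 FPKM in the control and 5562 with GRH in Ilpum, against 5665 and 2934 in NIL (adjusted p = 0.375). The minor antenna genes Os04g0457000, for CP24, and Os07g0558400, for CP29, had 499.9 FPKM in the control and 175 with GRH in Ilpum, against 316 and 41.6 in NIL, and 662 FPKM in the control and 238 with GRH in Ilpum, against 574 and 57.2 in NIL (adjusted p = 0.123 and adjusted p = 0.149). In both, the infested libraries lay below both controls, and NIL GRH was the lowest. Os04g0473150, described as photosystem II protein D1, a protein that the plastid genome encodes, had log2 differences of -1.0 for Ilpum and 0.023 for NIL.

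**Figure D5:**
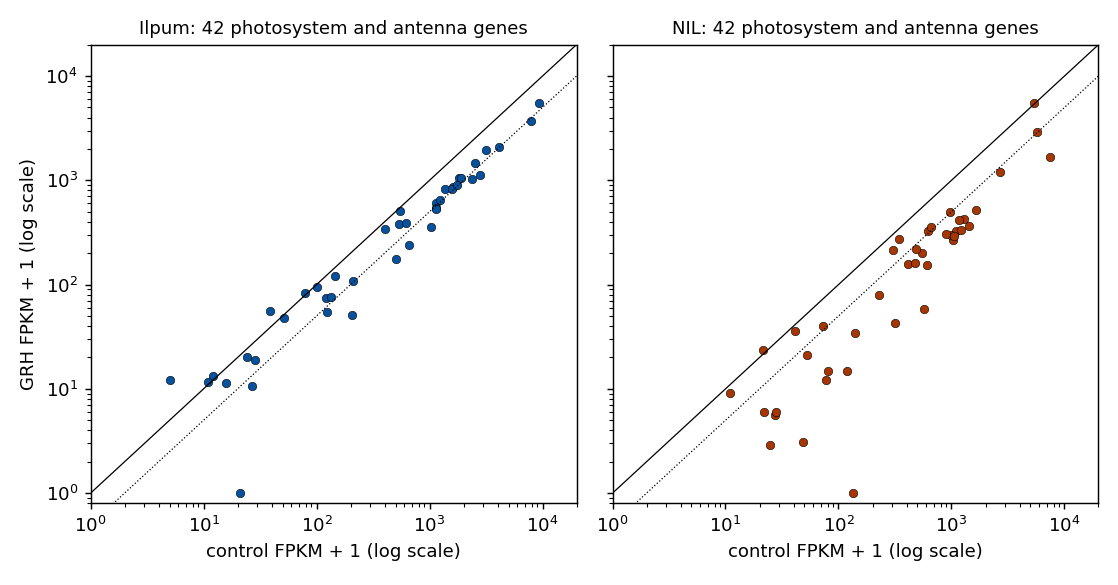
FPKM plus 1 with GRH (vertical) against FPKM plus 1 in the control (horizontal) for the 42 tested photosystem and antenna genes, in Ilpum (left) and NIL (right), both axes log. The solid line marks equal values and the dotted line a 2-fold lower value with GRH, and the median log2 difference was -0.80 in Ilpum and -1.61 in NIL.

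The Calvin cycle and chlorophyll lists also had medians below 0 in both lines. Of 21 tested Calvin cycle genes, 0 passed by edgeR (0 higher and 8 lower at an unadjusted p under 0.05). In both lines 15 were lower and 2 higher, beside 36.0% and 26.8% of all tested genes. The median was -0.36 for Ilpum and -1.16 for NIL. Rubisco activase, Os11g0707000, which keeps the carbon-fixing enzyme active, had 11706 FPKM in the control and 3998 with GRH in Ilpum, against 6429 and 2869 in NIL (adjusted p = 0.162). The Rubisco small-subunit gene Os12g0291100 had opposite signs, 0.41 for Ilpum and -2.66 for NIL. Of 14 tested chlorophyll and haem synthesis genes, 0 passed (0 higher and 4 lower at an unadjusted p under 0.05), 8 were lower and 0 higher in both lines, with a median of -0.60 for Ilpum and -1.26 for NIL. The protochlorophyllide reductase gene Os04g0678700, the light-dependent step of chlorophyll synthesis, had 106 FPKM in the control and 33.1 with GRH in Ilpum, against 48.4 and 11.8 in NIL (adjusted p = 0.119). The leaf mesophyll list, which is made of Rubisco small-subunit and antenna genes and so shares members with these, had 15 tested, 0 that passed (0 higher and 10 lower at an unadjusted p under 0.05), and summed FPKM of 31445 without and 17497 with GRH in Ilpum, against 23644 and 7053 in NIL.

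The ribosomal protein, proteasome, general housekeeping and clock lists had 0 members that passed. Of 143 tested cytosolic ribosomal protein genes, 0 passed by edgeR. At an unadjusted p under 0.05 by edgeR, 11 were higher and 0 lower, beside 7.38% and 5.35% of all tested genes. In both lines 95 were higher and 7 lower, beside 26.8% and 36.0% of all. Only 1 was at least 2-fold higher in both, and the median was 0.41 for Ilpum and 0.42 for NIL. Of 42 tested proteasome genes, 17 were higher and 8 lower in both, with a median of 0.16 for Ilpum and 0.076 for NIL. The general housekeeping list of 55 tested genes had a median of 0.17 for Ilpum and 0.25 for NIL. In both lines 23 of these were higher and 13 lower, and by edgeR 8 were higher and 1 lower at an unadjusted p under 0.05. The shares over all tested genes were 26.8% and 36.0% in both lines, and 7.38% and 5.35% at that p. The circadian clock list of 18 tested genes had 0 that passed and 0 at an unadjusted p under 0.05, and a median of -0.37 for Ilpum and -0.070 for NIL. Markers of other organs were present at low to moderate levels. The summed FPKM was 172 without and 180 with GRH in Ilpum, against 159 and 193 in NIL for 6 tested root genes, 2708 without and 4010 with GRH in Ilpum, against 1849 and 2660 in NIL for 32 pollen and anther genes, and 343 without and 808 with GRH in Ilpum, against 500 and 431 in NIL for 14 seed genes, and 0 of these genes passed. The part of other organs in the results was not tested.

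Some genes of the shared response were neighbours. Of the 162 genes at least 4-fold higher in both lines, 37 (22.8%) lay within 50 kb of another of them, and of the 93 lower ones 12 (12.9%) did. Besides the PAL, indole lyase, sesquiterpene synthase, glucanase, RIR1, peroxidase and peptidase neighbours already given, the higher pairs included the type III polyketide synthase Os07g0526400 and the alpha/beta hydrolase Os07g0526600, 17334 bases apart, and the uncharacterised Os06g0591200 and Os06g0591400, 4147 bases apart. Os06g0591400 rose, with 0 control and 216 GRH reads in Ilpum, against 18 and 264 in NIL (adjusted p = 0.0273 by edgeR). The lower pairs included the dehydrins Os11g0454000 and Os11g0454200, 7535 bases apart. The share that would lie this close among genes of any kind was not tested.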

How the data were processed

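RNA from leaves was sequenced by the authors as paired ends, with 1 library per line and treatment in the files, whereas the methods speak of duplicates. The methods name both an mRNA purification kit and a stranded total RNA library kit for plants, so how mRNA was selected is not clear. Per the file headers, reads were aligned with HISAT and quantified with StringTie 1.3.4d on IRGSP-1.0, whereas the methods name Trinity, CD-HIT and edgeR with TMM; the deposited values were used. The authors derived the estimated counts per transcript from StringTie coverage, rounded up to whole reads, so a count of 1 can stand for less than 1 read; they were whole already. FPKM was deposited by the authors from the same runs. Gene values are sums over transcripts, and 0 columns belonged to no sample. Genes were kept at a mean of at least 30 reads.

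Counts were fitted in edgeR 4.0.16 (R 4.3.3, limma 3.58.1) with TMM and the design line plus treatment, by quasi-likelihood, two-sided, with Benjamini-Hochberg adjustment over all 10189 genes. Pairing comes from the line label. Replicates are the 2 lines, so the residual of a gene is the difference between the lines in response, not spread between plants. The residual has 1 degree of freedom and the prior a median of 5.00. Most of the error therefore comes from dispersion shared across genes, with a common biological coefficient of variation of 0.40. Log2 differences used FPKM with 1 added. The scripts were tested on simulated data. Alternatives, given at the end, were DESeq2 1.42.0, other filters, scalings, pseudocounts, thinning and left-out libraries. Depth ranged from 894661 to 5037081 reads.

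The genes and lists were chosen with earlier results of these data known. The 43 lists are word searches in the deposited descriptions and are incomplete, and words that matched unrelated genes were corrected after the members had been seen. Named genes are the 15 highest ranks in each direction and the 2 highest ranks of each list in each direction; others, mainly genes that passed the test or neighbours of these, were chosen after their values were seen. A list with under 5 tested members is only counted. No sequences are shown and no promoter motifs were searched, because the reference table used here gives no sequence for these identifiers.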

Additional observations from a re-analysis of the deposited data

Results flagged for a closer look

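For 8 lists the medians of the log2 difference had opposite signs in the 2 lines, and the difference between lines was not tested, since each line has 1 library per treatment. The medians were -0.25 for Ilpum and 0.070 for NIL for MYB genes, -0.61 for Ilpum and 0.17 for NIL for cytochrome P450 genes, -0.15 for Ilpum and 0.26 for NIL for glycosyltransferases, -0.074 for Ilpum and 0.29 for NIL for protein phosphatases 2C, and 0.19 for Ilpum and -0.30 for NIL for plastid ribosomal proteins. They were 1.0 for Ilpum and -0.048 for NIL for cellulose synthases, -0.25 for Ilpum and 0.0094 for NIL for sucrose and starch breakdown, and 1.29 for Ilpum and -3.59 for NIL for seed genes, where 10 of the 14 tested members had fewer than 3 reads in at least 1 library. These lists have no direction shared by the lines.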

How the results depend on the processing

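The count of 99 genes that rose and 7 that fell depended on the fit. With DESeq2 size factors inside edgeR the counts were 148 and 20, with DESeq2 257 and 93, with limma on log2(FPKM + 1) 139 and 21, and with libraries thinned to the shallowest 137 and 14. Without a filter on low counts they were 450 and 290 (24178 genes tested), at a minimum mean of 100 reads 252 and 119 (4769 tested), and at a minimum mean CPM of 10 they were 31 and 0 (11528 tested) (561 lower at an unadjusted p under 0.05). With no replicate block for the line pairing edgeR called 0 and 0 (548 and 241 at an unadjusted p under 0.05), and leaving out 1 library in that fit gave from 0 to 45 higher and from 0 to 1 lower. Of the 99 genes, 99 were still called with DESeq2 size factors, 90 by DESeq2, 99 without a filter, 97 after thinning, 92 by limma and 31 with the CPM minimum, as were the 59 that a mean of 100 reads left to test.

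The genes at least 4-fold lower in both lines numbered 45 after quantile normalization, in place of 93, and the higher share of 2-fold genes was then 59.1%, beside 49.0% as reported and 59.4% with the CPM minimum. The CPM minimum gave 267 genes at least 4-fold higher. At the minimum of 100 reads the counts were 221 higher and 211 lower at 2-fold and 64 and 30 at 4-fold, and genes with a single transcript gave 363 lower at 2-fold. A single line alone (without replicate 1 or 2) gave from 1041 to 1372 higher and 1382 to 2240 lower at 2-fold, and from 258 to 411 and 354 to 844 at 4-fold. The cause of these differences was not tested, other than that fewer genes or 1 line enter.

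Of the 171 genes named by rule, 11 had an edgeR or limma log2 estimate that changed sign in at least 1 alternative, and none of them passed the test. Leaving out 1 library without the pairing gave estimates from -0.020 (without NIL GRH) to 1.45 for Os01g0348900, from -0.14 (without Ilpum GRH) to 1.66 for Os02g0137200, from -2.17 to 0.11 (without NIL control) for Os02g0161800, and from -8.50 to 1.01 (without NIL control) for Os03g0305950. The range was -1.30 to 0.20 (without NIL control) for Os03g0374600, with 0.038 without Ilpum GRH. It was -0.10 (without NIL GRH) to 0.58 for Os03g0766900, -0.26 (without Ilpum GRH) to 1.09 for Os05g0461400 and -0.47 to 0.090 (without NIL GRH) for Os05g0496200. Without Ilpum control it reached 0.15 for Os07g0481000, 0.28 for Os08g0547300 and 0.23 for Os09g0536400, whose lowest values were -1.97, -5.18 and -2.98. With limma the estimate was -0.40 for Os03g0766900 and 0.18 for Os05g0496200. For the medians of 41 lists, 273 recomputed values stayed close to the reported median and 92 did not, judged against how far apart the lines were. Values of a single line are counted too, with 24 and 28 that stayed and 17 and 13 that did not. A list whose lines lie far apart, as the seed list does, leaves more room for change.

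The main limits are 1 library per line and treatment, depth that differs with treatment, and a single residual degree of freedom. Promoter motifs were not run. Quantile normalization moved the median log2 difference of all tested genes in Ilpum from -0.15 to -0.049, and without the filter the median edgeR log2 was -0.46.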

Other observations

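Of 37 tested genes of nitrogen transport and assimilation, 17 were higher and 6 lower in both lines and 14 had opposite signs or no difference in a line, beside 26.8% higher and 36.0% lower of all tested genes, with 0 that passed by edgeR (9 higher and 3 lower at an unadjusted p under 0.05), and a median log2 difference of 0.062 for Ilpum and 0.43 for NIL. The amino acid permease gene Os12g0181500 had 40.9 FPKM in the control and 169.7 with GRH in Ilpum, against 14.3 and 55.9 in NIL (adjusted p = 0.0669 by edgeR), while the cytosolic glutamine synthetase gene Os03g0712800, which assimilates ammonium, was lower, with 18.6 FPKM in the control and 2.8 with GRH in Ilpum, against 92.9 and 23 in NIL (adjusted p = 0.11). The nitrate transporter gene Os03g0800000 and the phosphate transporter gene Os10g0444700 rose, at 2.11 for Ilpum and 2.44 for NIL (adjusted p = 0.0436) and 2.64 for Ilpum and 2.15 for NIL (adjusted p = 0.0495). The histone list of 20 tested genes had 11 lower and 2 higher in both lines, beside 36.0% and 26.8% of all tested genes. By edgeR 0 of them passed (0 higher and 3 lower at an unadjusted p under 0.05). Histone H1, Os04g0253000, had 703 FPKM in the control and 295 with GRH in Ilpum, against 427 and 139 in NIL (adjusted p = 0.157).

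The glutelin gene Os02g0453600, for a seed storage protein, had 112 control and 0 GRH reads in Ilpum, against 84 and 0 in NIL (adjusted p = 0.125), and the wall-associated kinase gene Os10g0180800 had 63.3 FPKM in the control and 7.17 with GRH in Ilpum, against 137 and 7.22 in NIL (adjusted p = 0.0923). Secreted peptidases and a peptide hormone precursor were among the genes that rose. The subtilisin-like peptidase gene Os04g0430700 had 19.1 FPKM in the control and 363 with GRH in Ilpum, against 5.6 and 187 in NIL (edgeR log2 4.65, SE 0.40, adjusted p = 0.0112), and the phytosulfokine 5 precursor gene Os12g0147800 had 13.8 FPKM in the control and 359.5 with GRH in Ilpum, against 36.7 and 336 in NIL (edgeR log2 3.90, SE 0.51, adjusted p = 0.0333). The apyrase gene Os12g0123500, of the enzymes that break down extracellular ATP, rose from 27.6 to 202 FPKM in Ilpum and 16.1 to 190.4 in NIL (edgeR log2 3.23, SE 0.36, adjusted p = 0.0211). These genes were chosen after their values were seen.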
